A study of Mus musculus with 4 samples.

Results

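Otx1, Otx2, Tbx1, Tbx2, Tbx3, Lmx1a, Lmx1b, Gbx2 and Emx2 encode transcription factors. They were grouped as factors of lateral, nonsensory and ventral territories of the otocyst, the closed epithelial vesicle from which the inner ear forms. These 9 genes were chosen by symbol from the 52636 genes of the count tables, and all 9 had enough reads in these libraries to be tested. RNA had been sequenced from mouse cells of otic ectoderm, sorted by fluorescence from otocysts. There were 2 libraries of genotype Control and 2 of genotype Brg1cKO, a conditional knockout of the chromatin remodeler Brg1, each made from 3000 cells. The deleting Cre, the alleles, the controls' genotype beyond that word, the embryos' age and the sorting marker are not given in the sources read for this work. Nothing in the labels says that replicates came from separate embryos, so p-values measure only the spread among these 4 libraries, and that spread may be technical.

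The otocyst is divided early into a neurosensory domain, which gives rise to neurons of the inner ear and to sensory patches, and nonsensory domains. OTX proteins bind DNA through a homeodomain, and in mice Otx1 is needed for the lateral semicircular canal. Tbx1, Tbx2 and Tbx3 share the T-box DNA-binding domain. Tbx1 restrains neurogenesis in the otocyst, and Tbx2 and Tbx3 are known mainly as repressors of transcription. Lmx1a and Lmx1b are LIM-homeodomain proteins, and loss of Lmx1a disturbs the border between sensory and nonsensory epithelium. Gbx2 acts in the dorsal otocyst and endolymphatic duct, and Emx2 in the cochlea and in the orientation of hair cells. The series title concerns Brg1, Sox2 and the setting up of proneurosensory identity. These factors were grouped as counterparts outside that domain, although the roles given for Gbx2 and Emx2 show that the grouping is loose.

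Gene reads numbered 15357265 and 19132360 in the control libraries and 29361382 and 25875555 in the Brg1cKO libraries, and 48.2% and 49.3% of records against 64.0% and 63.7% fell in genes. Genes with any read numbered 17266 and 17086 in control libraries and 20859 and 20902 in the Brg1cKO libraries. Smarca4, the gene for Brg1, stood at 816 and 815 CPM in control libraries and 891 and 848 CPM in the Brg1cKO libraries (CPM here and below is a gene's read count normalised to the TMM-scaled library size), so its total count did not separate the groups as a deletion of the whole transcript would, and every direction below rests on the labels. Several marker lists moved with the label, some lower and some higher. The summed level of 14 otic epithelium genes was 1677 and 1917 CPM in control libraries against 352 and 346 CPM, that of 12 pharyngeal and cardiac mesoderm genes 183 and 140 against 1007 and 994 CPM, and that of 12 macrophage and white blood cell genes 344 and 344 against 1539 and 1450 CPM. All 14, 12 and 12 genes of these lists passed the low-count filter, with 14 of 14 lower, 12 of 12 higher and 12 of 12 higher in the fitted difference, although only Oc90 and Mrc1 among them passed the test over all genes. Red blood cell genes (9 in the list) were lower, at 634 and 649 against 226 and 211 CPM. Surface ectoderm genes (8 in the list) were higher in sum, at 42.2 and 23.7 against 85.5 and 76.1 CPM. Endothelial genes (10 in the list) stood at 2924 and 2878 against 3169 and 3128 CPM, so transcripts of vessel cells were abundant in every library sorted as otic. In such bulk RNA fewer cells of a type and less RNA per cell cannot be told apart, and the part of these shifts in the results below was not tested.

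**Figure D1:**
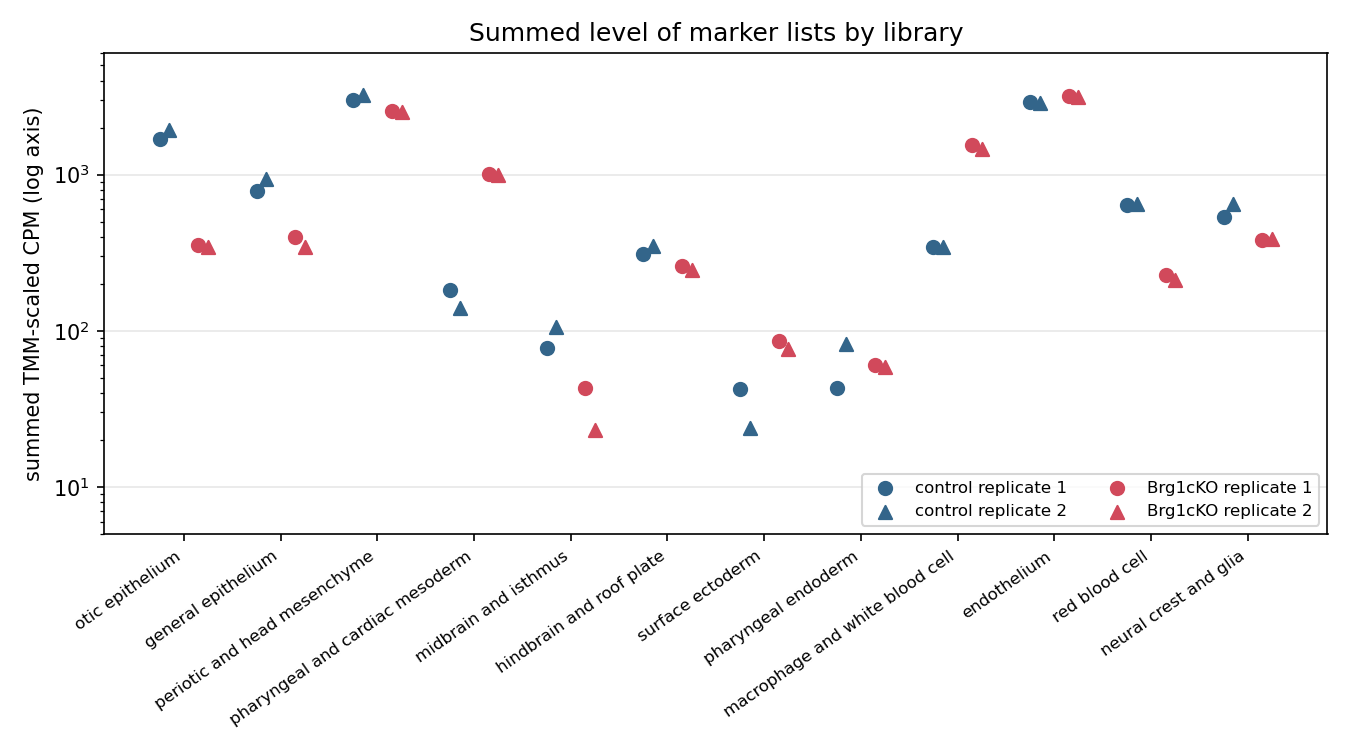
Summed TMM-scaled CPM (log axis) of 12 marker lists in each library, with circles and triangles for replicates 1 and 2, blue for control and red for Brg1cKO. The otic epithelium list lies between 1677 and 1917 CPM in control libraries and at 352 and 346 CPM in the Brg1cKO libraries, while the pharyngeal and cardiac mesoderm and macrophage lists lie higher in the Brg1cKO libraries.

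The bases just before the start sites of a few of these genes are shown because Otx2, Gbx2 and Lmx1a stood lower in both Brg1cKO libraries while Lmx1b, the paralogue of Lmx1a, did not. RefSeq windows on GRCm38.p6, the assembly also called mm10, were found for 6 of the 9 genes, with none for Otx1, Tbx2 or Tbx3. Each stretch runs 5′ to 3′ on the gene's strand and leaves out bases in annotated exons of that gene, and for Otx2 the window with the longest such stretch was taken. Capitals mark a match on either strand to the OTX site TAATCC, the T-box core GGTGTGA, the homeobox core TAATTA, the GC box GGGCGG or the TATA box TATAAA. The Otx2 stretch is chr14:48667645-48667894 on the minus strand, Gbx2 is chr1:89931180-89931426 on the minus strand, Lmx1a is chr1:167689308-167689556 on the plus strand and Lmx1b is chr2:33641099-33641348 on the minus strand. The Otx2 stretch lies inside the annotated span of that gene, before one of its inner start sites, and the Lmx1a stretch begins after the first annotated base of Lmx1a, while those of Gbx2 and Lmx1b lie wholly before their genes.
Otx2: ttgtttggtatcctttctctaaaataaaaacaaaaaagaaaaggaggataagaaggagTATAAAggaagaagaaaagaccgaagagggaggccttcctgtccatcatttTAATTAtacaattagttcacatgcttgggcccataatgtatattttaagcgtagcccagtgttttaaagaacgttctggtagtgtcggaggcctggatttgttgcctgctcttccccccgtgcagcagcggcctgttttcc
Gbx2: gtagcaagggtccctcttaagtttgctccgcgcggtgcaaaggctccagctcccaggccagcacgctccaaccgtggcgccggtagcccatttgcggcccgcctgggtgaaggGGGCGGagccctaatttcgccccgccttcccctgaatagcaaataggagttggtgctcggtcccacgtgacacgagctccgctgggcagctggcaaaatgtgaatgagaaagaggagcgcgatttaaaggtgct
Lmx1a: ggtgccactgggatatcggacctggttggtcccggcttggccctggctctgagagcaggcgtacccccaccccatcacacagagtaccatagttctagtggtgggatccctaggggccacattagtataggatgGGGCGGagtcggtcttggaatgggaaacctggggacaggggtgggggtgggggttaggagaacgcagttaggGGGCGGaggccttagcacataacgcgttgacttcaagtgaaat
Lmx1b: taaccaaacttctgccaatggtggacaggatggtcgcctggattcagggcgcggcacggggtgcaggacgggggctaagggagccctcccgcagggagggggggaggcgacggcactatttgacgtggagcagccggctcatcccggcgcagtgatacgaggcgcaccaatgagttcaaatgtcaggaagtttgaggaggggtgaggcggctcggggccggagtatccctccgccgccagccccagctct

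The Otx2 stretch held 1 TATA box and 1 homeobox core and was the poorest of the 4 in G and C (42.0%). The Lmx1a stretch held 2 GC boxes (G and C at 59.0%), the Gbx2 stretch 1 (61.1%) and the Lmx1b stretch no match (65.2%). Of the Tbx1 windows, which are not printed, 1 held a GC box (67.2%) and the other no match (54.4%). The groups overlapped for Tbx1, so a GC box was not confined to genes whose groups separated. Over 32851 windows of the table, the 250 bases before the start held the OTX site in 6.25%, the T-box core in 3.33%, the homeobox core in 4.84%, the GC box in 32.7% and the TATA box in 12.4%. No OTX site and no T-box core was found in the 4 stretches, which says only that these letters are not in these windows. None of the 5 motifs was found in all 3 of Otx2, Gbx2 and Lmx1a.

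Across the 9 factors, 5 had a lower level in both Brg1cKO libraries with an unadjusted p under 0.05 by edgeR's quasi-likelihood test, and these were Otx1, Tbx2, Otx2, Lmx1a and Gbx2. Of the 16557 genes tested, 4.8% had an unadjusted p under 0.05 by the same test with a negative log2 fold change, whether or not the groups overlapped. Tbx3 also stood lower in both Brg1cKO libraries without reaching that p, which made 6 of 9 factors whose groups did not overlap with Brg1cKO below control, against 17.8% of all genes tested. All 9 log2 fold changes of Brg1cKO over control were negative, where 48.5% of all genes were, and their median was -1.97 against 0.03 for all genes tested. The sign turned for Lmx1b without control replicate 1 (0.20) or without Brg1cKO replicate 1 (0.10) and for Emx2 without control replicate 2 (1.08). None of the 9 passed at a Benjamini-Hochberg adjusted p under 0.05 over all genes, a threshold that 5 genes in all passed (0.0302%), 3 of them lower (0.0181%). These factors were chosen with earlier results of these data known, so the counts describe them and do not support a shift of the group.

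The number of factors called depended on the libraries and the tool used, and the cause was not tested. Without control replicate 1 the number of factors called lower was 6 (Otx1, Otx2, Tbx2, Tbx3, Lmx1a and Gbx2), and without control replicate 2 it was also 6 (Otx1, Otx2, Tbx1, Tbx2, Lmx1a and Gbx2), where 8.82% and 8.39% of all genes were called lower. Without Brg1cKO replicate 1 or replicate 2 it was 2, Otx1 and Tbx2 in both cases, with 0.116% and 0.0734% of all genes called lower. In each of these fits the group with a single library was taken to vary like the other. DESeq2 called 5 factors (Otx1, Otx2, Tbx2, Lmx1a and Gbx2) with 3.94% of all genes called lower, and limma voom called Tbx2 alone, with 0.205%. Among genes at an average log2 CPM of 3 or more, the control replicates lay over 2-fold apart for 30.0% and the Brg1cKO replicates for 6.97%. Of the 9 factors, Otx1 and Emx2 lay that far apart between controls and Tbx3 between Brg1cKO libraries (0.5 CPM was added to each value).

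**Figure D2:**
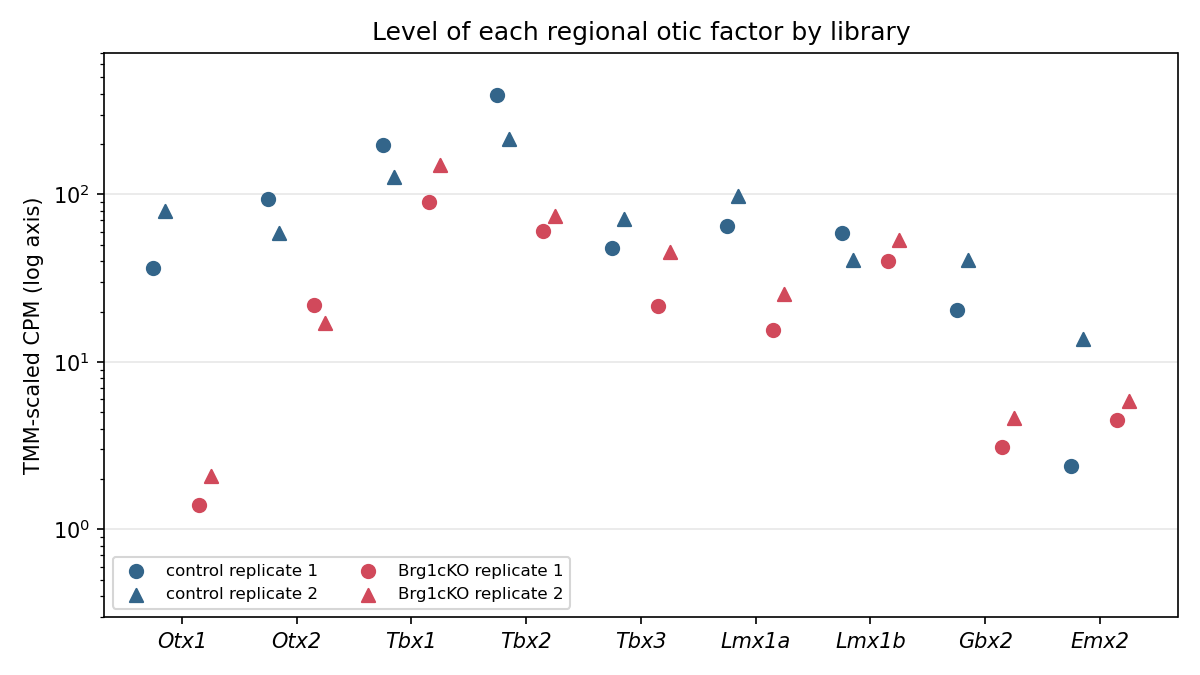
TMM-scaled CPM (log axis) of each of the 9 factors in each library, with circles and triangles for replicates 1 and 2, blue for control and red for Brg1cKO. Otx1 lies at 1.40 and 2.08 CPM in the Brg1cKO libraries against 36.4 and 80.1 CPM in control libraries, while for Tbx1, Lmx1b and Emx2 the groups overlap.

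Otx1 showed the widest separation of the 9. It was counted 561 and 1509 times in control libraries and 41 and 54 times in the Brg1cKO libraries, which is 36.4 and 80.1 CPM against 1.40 and 2.08 CPM. Both controls were far above both Brg1cKO libraries, although the controls themselves differed by 2.20-fold. The mean was 58.3 ± 30.8 CPM in control libraries and 1.74 ± 0.483 CPM in the Brg1cKO libraries (SD, n = 2 each). The log2 fold change was -5.06 ± 0.690 (SE; 95% interval -6.69 to -3.44; adjusted p = 0.0840, edgeR). Otx1 (ENSMUSG00000005917) lies on the minus strand of chromosome 11 from 21994764 to 22002897 in mm10, and no other annotated gene lies over it.

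Otx2, which in the ear marks ventral and nonsensory epithelium and is better known from forebrain and midbrain, stood at 93.5 and 58.8 CPM in control libraries and 21.9 and 17.0 CPM in the Brg1cKO libraries. Both controls lay above both Brg1cKO libraries. The log2 fold change of Otx2 was -1.97 ± 0.433 (SE; 95% interval -2.99 to -0.95), which did not pass after adjustment (adjusted p = 0.228, edgeR). Otx2 (ENSMUSG00000021848, chromosome 14, 48657677 to 48673819, minus strand) shares 154 exonic bases with Otx2os1 on the opposite strand, which had 30 reads in control replicate 1 and 0 in the other 3 libraries. Genes of the midbrain and isthmus list, summed over 8 genes, stood at 78.0 and 105 CPM in control libraries and 43.1 and 23.2 CPM in the Brg1cKO libraries. Most of that sum was Pou3f3 (66.7 and 63.0 against 26.7 and 16.5 CPM), which is not restricted to midbrain. The part of neural tissue in the Otx2 level was not tested.

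Within a library the balance of the 2 OTX genes differed as well. Per kilobase of merged exons, Otx1 stood at 0.304 and 1.06 times Otx2 in control libraries and at 0.0497 and 0.0953 times Otx2 in the Brg1cKO libraries, a ratio that no scaling between libraries can change. The mean log2 ratio differed by -3.04. The groups did not overlap, but an exact two-sided permutation test of 2 against 2 cannot go below 0.333, and it gave p = 0.333.

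Tbx2 had the highest level per kilobase of the 9 in both control libraries (108 and 59.3 CPM per kilobase of merged exons). It stood at 392 and 215 CPM there and at 60.7 and 74.6 CPM in the Brg1cKO libraries, so the groups did not overlap and the Brg1cKO replicates lay closer together than the controls. Means were 304 ± 125 and 67.6 ± 9.83 CPM (SD, n = 2 each). The log2 fold change was -2.17 ± 0.315 (SE; 95% interval -2.91 to -1.43; adjusted p = 0.0957, edgeR). Tbx2 (ENSMUSG00000000093) lies on the plus strand of chromosome 11 from 85832551 to 85841948 and has no annotated overlap.

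Tbx3, its closest relative, stood at 47.8 and 71.0 CPM in control libraries and at 21.7 and 45.1 CPM in the Brg1cKO libraries. The groups did not overlap, yet control replicate 1 and Brg1cKO replicate 2 were nearly level. For Tbx3 the log2 fold change was -0.83 ± 0.491 (SE; 95% interval -1.99 to 0.33), which did not pass (adjusted p = 0.606, edgeR). Tbx3 (ENSMUSG00000018604, chromosome 5, 119670669 to 119684724, plus strand) shares 115 exonic bases with Tbx3os1 on the opposite strand, which had 92 and 74 reads in control libraries and 0 and 56 in the Brg1cKO libraries.

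Tbx1, known for its role in the ear and pharyngeal defects of 22q11 deletion, stood at 197 and 128 CPM in control libraries and at 90.6 and 151 CPM in the Brg1cKO libraries. Brg1cKO replicate 2 lay between the controls, so the groups overlapped. Its log2 fold change of -0.43 ± 0.329 (SE) had a 95% interval from -1.20 to 0.35 (adjusted p = 0.730, edgeR), which leaves room for a decrease of the size of 2-fold and for a small increase. Tbx1 (ENSMUSG00000009097) lies on the minus strand of chromosome 16 from 18580979 to 18590671. Tbx1 is also made in pharyngeal mesoderm and head mesenchyme. The mesoderm list was higher in the Brg1cKO libraries, as given above, and 12 periotic and head mesenchyme genes summed to 2998 and 3247 CPM in control libraries and 2533 and 2528 CPM in the Brg1cKO libraries.

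The T-box genes therefore stood in another proportion in the Brg1cKO libraries. Per kilobase, Tbx2 was 1.93 and 1.63 times Tbx1 in control libraries and 0.650 and 0.479 times Tbx1 in the Brg1cKO libraries, which put Tbx2 above Tbx1 in both controls and below it in both others. Tbx2 was 15.0 and 5.54 times Tbx3 in control libraries against 5.12 and 3.02 times, where the lowest control and the highest Brg1cKO library nearly met. For both ratios the exact two-sided permutation p was 0.333, the smallest that 2 against 2 allows. The ratio of Tbx3 to Tbx1 overlapped between groups (0.129 and 0.295 against 0.127 and 0.159; exact permutation p = 0.667).

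Of the LIM-homeodomain pair, Lmx1a was separated between the groups and Lmx1b overlapped. Lmx1a stood at 64.5 and 97.4 CPM in control libraries and at 15.5 and 25.5 CPM in the Brg1cKO libraries, with no overlap. Its log2 fold change was -1.98 ± 0.449 (SE; 95% interval -3.04 to -0.93; adjusted p = 0.233, edgeR). Lmx1b stood at 59.1 and 40.8 CPM in control libraries and at 40.2 and 53.2 CPM in the Brg1cKO libraries, with both ranges nearly the same. Its log2 fold change of -0.09 ± 0.406 (SE) had a 95% interval from -1.05 to 0.86 (adjusted p = 0.967, edgeR), so a 2-fold change lies near the edge of what these libraries could show. Lmx1a (ENSMUSG00000026686) lies on the plus strand of chromosome 1 from 167689237 to 167848741, and Lmx1b (ENSMUSG00000038765) on the minus strand of chromosome 2 from 33560965 to 33640511.

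Per kilobase, Lmx1a stood at 1.57 and 3.43 times Lmx1b in control libraries and at 0.553 and 0.687 times Lmx1b in the Brg1cKO libraries. Lmx1a was thus the more abundant of the pair in both controls and the less abundant in both Brg1cKO libraries. The mean log2 ratio differed by -1.91 (exact two-sided permutation p = 0.333, the smallest possible here). Both genes are also made in the roof plate of the hindbrain. The 12 genes of the hindbrain and roof plate list summed to 308 and 348 CPM in control libraries and 260 and 246 CPM in the Brg1cKO libraries, and most of this was Zic1 and Zic2. Of that list, Pax3, Olig3, Wnt3a, Atoh1 and Sox1 were among the genes with 0 reads in both controls, and in the Brg1cKO libraries Wnt3a stood at 10.9 and 3.51 CPM, Pax3 at 5.19 and 8.95 and Sox1 at 3.07 and 4.94. Of the 10 genes of the list that were tested, 0 were called, while 1 was lower and 5 were higher at an unadjusted p under 0.05 by edgeR (4.8% and 7.66% of all genes). The part of hindbrain cells in these levels was not tested, nor was that of the fewer genes detected in control libraries.

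**Figure D3:**
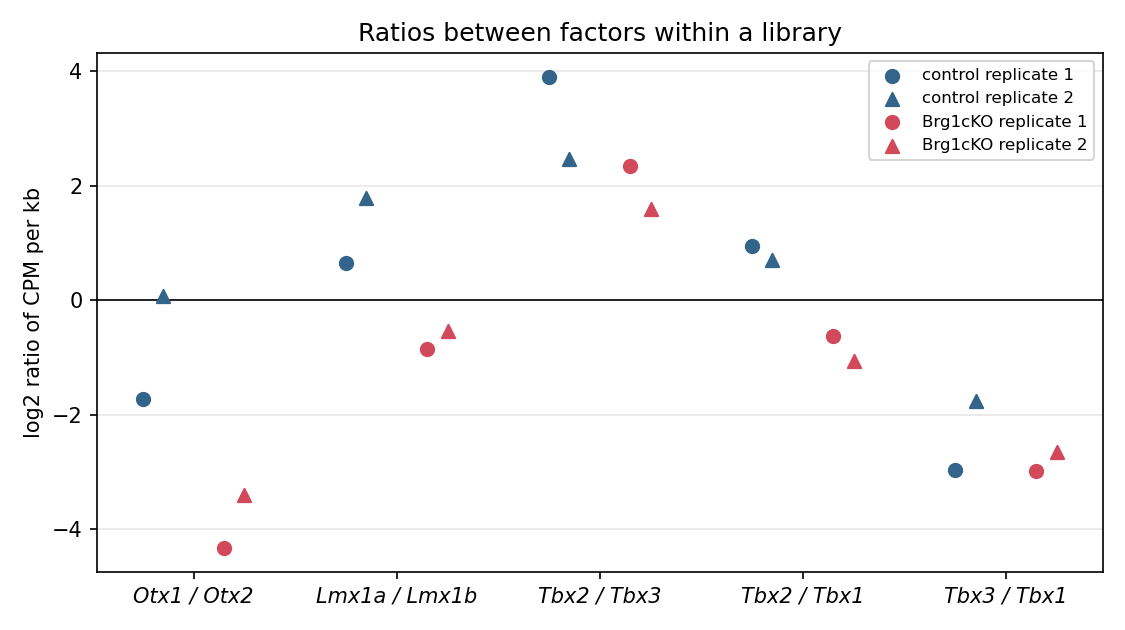
Log2 ratio of CPM per kilobase between pairs of factors within each library, with circles and triangles for replicates 1 and 2, blue for control and red for Brg1cKO. Both Brg1cKO libraries lie below both controls for the first 4 ratios, and the Tbx2 to Tbx1 and Lmx1a to Lmx1b ratios cross 1 (log2 of 0) between the groups.

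Gbx2 stood at 20.3 and 40.8 CPM in control libraries and at 3.11 and 4.63 CPM in the Brg1cKO libraries. The groups were well apart, although the controls differed by 2.01-fold. Its log2 fold change was -2.98 ± 0.788 (SE; 95% interval -4.83 to -1.13; adjusted p = 0.310, edgeR). Gbx2 (ENSMUSG00000034486, chromosome 1, 89927956 to 89931179, minus strand) has 2177 exonic bases, of which 946 are shared with D130058E05Rik on the opposite strand. That transcript had 0 and 293 reads in control libraries and 88 and 95 in the Brg1cKO libraries, beside 313 and 769 against 91 and 120 for Gbx2. No source used here gives the strand setting of the counting, and the Gbx2 count is uncertain if strand was ignored.

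Emx2 had the lowest level per kilobase of the 9 in both control libraries and the widest interval. It had 37 and 260 reads in control libraries (2.40 and 13.8 CPM) and 132 and 151 in the Brg1cKO libraries (4.51 and 5.82 CPM). Both Brg1cKO libraries lay between the controls, which differed by 5.74-fold. Its log2 fold change of -0.65 ± 1.38 (SE) had a 95% interval from -3.90 to 2.60 (adjusted p = 0.926, edgeR), and without control replicate 2 it was 1.08. Emx2 (ENSMUSG00000043969, chromosome 19, 59458372 to 59465357, plus strand) shares 264 exonic bases with Emx2os on the opposite strand, which had 130 reads in control replicate 2 and 0 in the other 3 libraries. The library with the highest Emx2 was thus the one library with Emx2os.

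**Figure D4:**
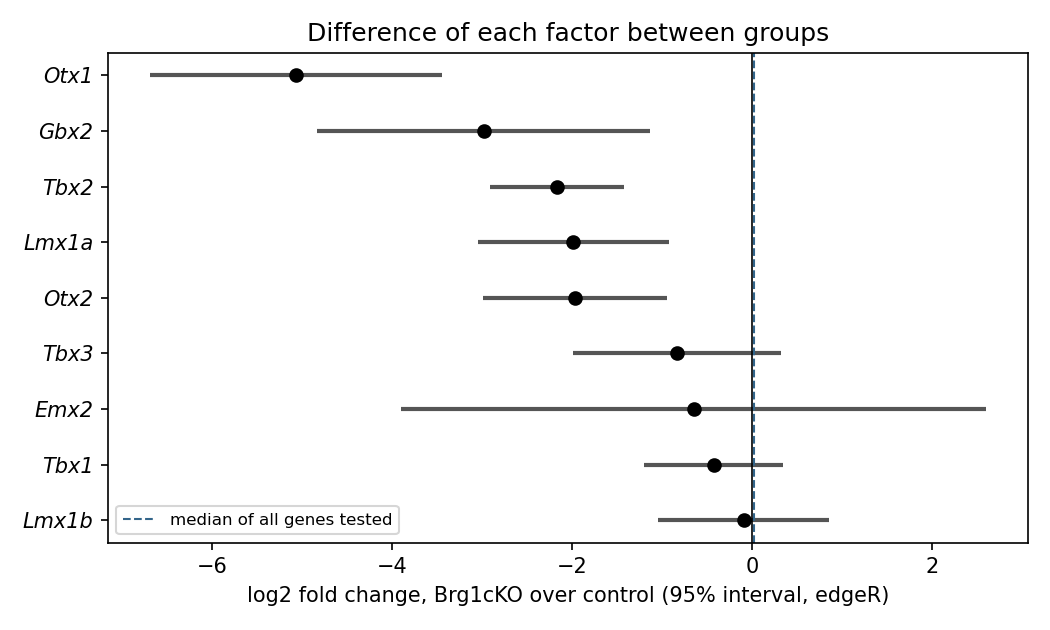
Log2 fold change of Brg1cKO over control for each factor (points) with its 95% interval from edgeR (lines), and the median of all genes tested (dashed, 0.03). The intervals of Otx1, Gbx2, Tbx2, Lmx1a and Otx2 lie below 0, and those of Tbx3, Emx2, Tbx1 and Lmx1b include 0.

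Ordered by level per kilobase of exon, the controls ran from Tbx2 (83.8 ± 34.6 CPM per kilobase, SD, n = 2 here and for each level below) and Tbx1 (46.2 ± 14.0) through Lmx1a (23.8 ± 6.85), Otx2 (18.0 ± 5.80), Gbx2 (14.0 ± 6.65), Otx1 (10.7 ± 5.69), Lmx1b (10.2 ± 2.65) and Tbx3 (8.96 ± 2.48) to Emx2 (2.70 ± 2.68). Neighbours from Lmx1a to Tbx3 in that order overlapped between the replicates and do not differ beyond their spread. Tbx2, Tbx1 and Lmx1a did not overlap with each other, nor did Tbx3 with Emx2. In the Brg1cKO libraries Tbx1 led (34.3 ± 12.1), followed by Tbx2 (18.6 ± 2.71), Lmx1b (9.58 ± 1.88), Lmx1a (6.03 ± 2.08), Tbx3 (5.04 ± 2.51), Otx2 (4.61 ± 0.824), Gbx2 (1.78 ± 0.494), Emx2 (1.72 ± 0.310) and Otx1 (0.321 ± 0.0890). There the replicates of Lmx1a, Tbx3 and Otx2 overlapped as neighbours in the order, as did those of Gbx2 and Emx2, and the other neighbours did not overlap. Otx1 stood at the end of the order, below both values of Emx2.

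Set against the otic epithelium list of the same library, most of the 5 factors with an unadjusted p under 0.05 no longer separated the groups. Otx1 stood at 21.7 and 41.8 reads per 1000 reads of that list in control libraries and at 3.98 and 6.02 in the Brg1cKO libraries, and was the only 1 of 9 that remained lower without overlap, where 0.991% of all tested genes did. Otx2 stood at 55.7 and 30.7 against 62.3 and 49.2 reads per 1000, Tbx2 at 234 and 112 against 172 and 215, Lmx1a at 38.5 and 50.8 against 44.0 and 73.6, and Gbx2 at 12.1 and 21.3 against 8.83 and 13.4, all with overlap. Tbx1, Tbx3, Lmx1b and Emx2 were higher per otic read in both Brg1cKO libraries, as were 84.6% of all tested genes. Lmx1b, for example, stood at 35.2 and 21.3 reads per 1000 in control libraries and at 114 and 154 in the Brg1cKO libraries.

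These ratios depended on the list they were set against. With 12 general epithelial genes, among them Epcam, Krt8 and Krt18, as the reference, 5 factors remained lower without overlap (Otx1, Otx2, Tbx2, Lmx1a and Gbx2), where 2.89% of all tested genes did. The general list was 783 and 938 CPM in control libraries and 399 and 342 CPM in the Brg1cKO libraries, a smaller difference than in the otic list, in which Oc90 alone gave 782 and 732 against 44.6 and 49.1 CPM. Without Oc90, the otic list left Otx1 and Gbx2 lower (2 of 9, with 1.44% of all tested genes). Otx1 was lower against all 3 references. These share genes and are not independent, since Epcam and Cdh1 stand in both the otic and the general list. Values of Otx1 per 1000 general epithelial reads were 46.5 and 85.3 in control libraries and 3.51 and 6.08 in the Brg1cKO libraries.

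**Figure D5:**
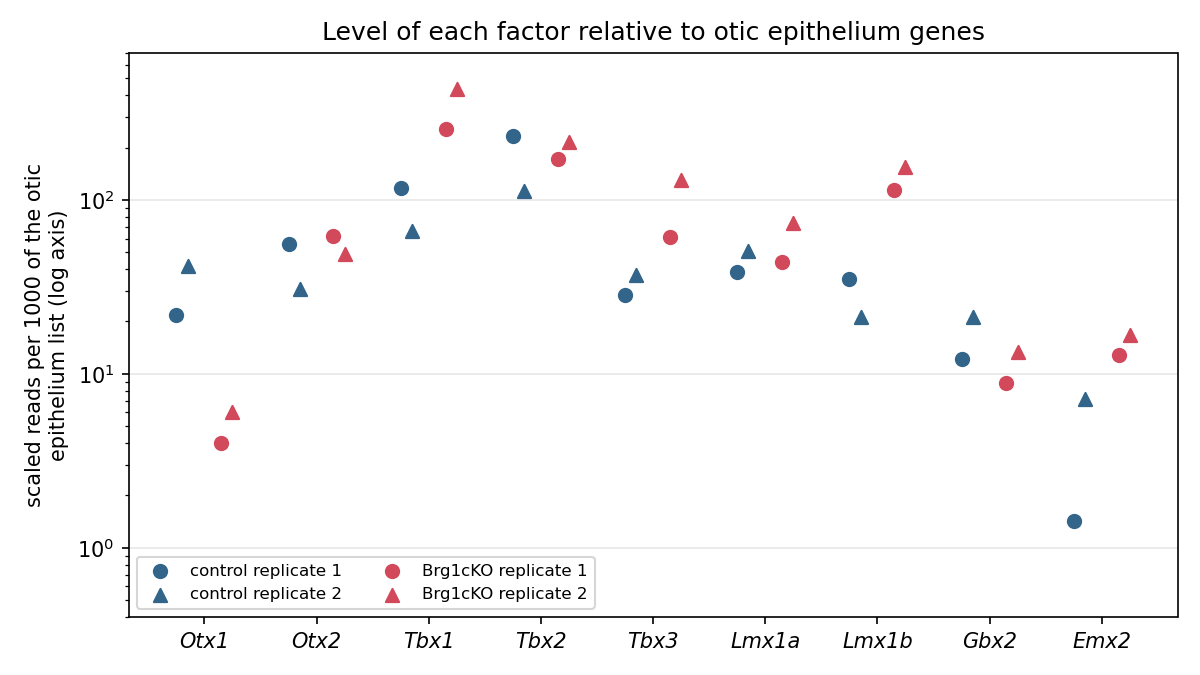
Scaled reads of each factor per 1000 reads of the otic epithelium list in the same library (log axis), with circles and triangles for replicates 1 and 2, blue for control and red for Brg1cKO. Otx1 is lower in both Brg1cKO libraries, Otx2, Tbx2, Lmx1a and Gbx2 overlap, and Tbx1, Tbx3, Lmx1b and Emx2 are higher in both.

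Relatives outside the 9 were read out by family, and some stood lower and some higher in the Brg1cKO libraries. Of 14 other T-box genes in the files, 9 were tested, 0 were called, and 0 were lower and 3 higher at an unadjusted p under 0.05 by edgeR (7.66% of all genes were higher at that p). Tbx20, a cardiac T-box factor, stood at 0.260 and 2.92 CPM in control libraries and at 117 and 111 CPM in the Brg1cKO libraries (log2 fold change 6.12 ± 0.942, SE, adjusted p = 0.110 by edgeR). Tbx5, which acts in heart and forelimb, stood at 0.0650 and 0 against 3.45 and 13.1 CPM. Mga, a T-box factor that works with MAX, stood at 190 and 270 against 179 and 167 CPM. Tbx5 and Tbx20 also stand in the pharyngeal and cardiac mesoderm list, whose sum was higher in the same libraries, with Myh6, a cardiac myosin, at 18.0 and 7.64 against 113 and 119 CPM. Among the nearest OTX, GBX and EMX relatives, Emx1 and Gbx1 had 0 reads in both controls, with 27 and 26 reads of Emx1 and 13 and 68 reads of Gbx1 in the Brg1cKO libraries. Control libraries had fewer genes with any read, as given above.

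Of 15 other LIM-homeobox genes and LIM cofactors, 14 were tested and 0 were called, with 2 lower and 2 higher at an unadjusted p under 0.05 by edgeR and a median log2 fold change of -0.25. Over all genes tested the shares at that p were 4.8% lower and 7.66% higher, here and for the lists that follow, and the median was 0.03. Isl1 and Isl2, LIM-homeodomain factors of neurons, stood at 78.9 and 87.6 against 42.6 and 29.2 CPM and at 54.8 and 42.0 against 6.11 and 8.21 CPM. The groups overlapped for the cofactors Ldb1 and Ssbp3. Ldb1, which bridges LIM-homeodomain proteins, stood at 275 and 288 against 290 and 214 CPM, and Ssbp3, its stabilising partner, at 379 and 260 against 239 and 268 CPM.

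The neurosensory domain list had 17 of 18 genes tested and 0 called. At an unadjusted p under 0.05 by edgeR, 5 were lower and 0 higher, with a median of -1.21 (all genes tested, 4.8% lower, 7.66% higher and 0.03). Eya1, which acts early in otic neurosensory development, stood at 116 and 210 against 35.4 and 46.7 CPM. Neurog1, the factor that starts otic neurogenesis, and Sox2, the proneurosensory factor of the series title, were picked with their values known. Neurog1 had 34.0 and 9.29 against 1.03 and 2.12 CPM, and Sox2 had 12.2 and 16.7 against 30.1 and 33.6 CPM, higher in both Brg1cKO libraries. Jag1, a Notch ligand of prosensory patches, stood at 92.9 and 66.5 against 124 and 108 CPM.

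Of 21 other regional otic genes, 20 were tested and 0 called, with 5 lower and 1 higher at an unadjusted p under 0.05 by edgeR and a median of -0.85, beside 4.8% lower, 7.66% higher and 0.03 over all genes tested. Nr2f1, an orphan nuclear receptor, stood at 413 and 431 against 189 and 168 CPM, while its relative Nr2f2 stood at 293 and 212 against 218 and 212 CPM.

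Signals known to pattern these territories were also read out. Of 15 retinoic acid genes tested, 5 were lower and 0 higher at an unadjusted p under 0.05 by edgeR, 0 were called, and the median was -0.59, where 4.8% of all genes tested were lower and 7.66% higher and the median was 0.03. Aldh1a3, a retinoic acid-producing enzyme, stood at 19.0 and 40.9 against 1.61 and 0.116 CPM, and the receptor Rara at 171 and 135 against 73.0 and 78.9 CPM. Of 10 SHH genes, 2 were lower (0 called, median -0.57), namely the co-receptors Cdon (222 and 230 against 115 and 133 CPM) and Gas1 (182 and 155 against 95.1 and 81.5 CPM). Ptch1, receptor and target of SHH, overlapped at 289 and 139 against 202 and 231 CPM. Of 12 WNT response genes, 1 was lower (0 called, median -0.22), a share near that over all genes, and it was the feedback inhibitor Axin2 at 231 and 252 against 143 and 117 CPM.

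Genes reported as targets of these factors in other tissues gave 11 tested of 14, with 2 lower and 1 higher at an unadjusted p under 0.05 by edgeR, 0 called and a median of -0.46, again beside 4.8% and 7.66% of all genes. Gja1, a gap junction gene repressed by Tbx2 and Tbx3 in heart, stood at 227 and 203 against 157 and 157 CPM. Cdkn1c, a cell cycle inhibitor, stood at 338 and 320 against 437 and 470 CPM.

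In the genome around the 9 factors, 28 other tested genes lay within 250 kb. Of these, 17 had negative log2 fold changes, 3 were lower and 3 higher at an unadjusted p under 0.05 by edgeR, 0 were called, and the median was -0.11. Over all genes tested 48.5% were negative, 4.8% lower and 7.66% higher at that p, with a median of 0.03. Of these genes the next few were picked after their values were seen. Ehbp1, 2.93 kb from Otx1, stood at 38.3 and 32.1 against 27.6 and 29.5 CPM, close to level where Otx1 was far apart. Rxrg, a retinoid receptor 49.6 kb from Lmx1a, stood at 26.0 and 38.6 against 3.11 and 4.13 CPM. Tbx4, 44.5 kb from Tbx2, had 0 reads in both controls, where fewer genes were detected, and 1.09 and 2.58 CPM in the Brg1cKO libraries. Tbx5, given above with the mesoderm list, lies 148 kb from Tbx3. Bcas3, 6.49 kb from Tbx2 and the closest of its tested neighbours, stood at 35.2 and 57.2 against 23.4 and 27.7 CPM.

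Among the 11081 genes at an average log2 CPM of at least 3, whatever their own level, likeness over the 4 libraries was measured as the root mean square difference of log2(CPM + 1) after centring. Nearest to Otx2 was Ttll7 (0.0312), to Tbx1 Rims3 (0.0358), to Tbx2 Adam11 (0.0780) and Scx (0.0930), to Tbx3 Kin (0.0553), to Lmx1a Lpin1 (0.0618), to Lmx1b Top3a (0.0225) and to Gbx2 Nlgn3 (0.124). Otx1 had no close match, the nearest being Gm14892 (0.307) and Thsd7b (0.319), the latter at 42.4 and 62.7 against 2.49 and 2.47 CPM. Emx2 lay under that minimum and was left out. With 4 libraries such nearness arises readily among so many genes. For the 8 factors searched, the nearest 2 genes held none of the others.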

How the data were processed

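The authors deposited whole-number read counts per Ensembl gene, 1 table per library, not normalized. HISAT2, HTSeq, DESeq2 and mm10 are named in the submitters' processing notes, without roles; the counting's strand setting is not given in the sources used here. Lines that name no gene (14.5% to 21.6% of records outside genes, 2.20% to 3.00% ambiguous, 9.41% to 20.9% not aligned, 7.63% to 9.01% not unique) were left out. Symbols and exon lengths came from GENCODE M21 (52403 of 52636 identifiers). The main test was run in edgeR 4.0.16 (R 4.3.3) with filterByExpr (minimum count 10; 16557 genes), TMM, and a robust quasi-likelihood F-test on group, default moderation, Benjamini-Hochberg over all genes, call under 0.05. The fit was checked on simulated counts whose spread was set alike in both groups. That check does not cover the unequal spread between replicates in these libraries. Alternatives numbered 12, with limma 3.58.1 and DESeq2 1.42.0 among them. Precision is limited by 2 libraries a group.

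The members and lists were chosen with earlier results of these data known. Named are the 9 factors, overlapping genes, Smarca4, up to 2 genes of smallest p and 2 of highest CPM per context list, up to 3 of highest CPM per marker list, and the nearest 2 patterns; the list members named outside that rule (Neurog1, Sox2, Tbx4, Oc90 and Mrc1 apart from their rank, the hindbrain genes at 0 in controls) and genomic neighbours were picked after their values were seen. A few genes that this rule would name are not reported here.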

Additional observations from a re-analysis of the deposited data

How the results depend on the processing

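Of 12 alternatives for each factor, all kept a negative log2 fold change for Otx1 (-5.52 to -4.40), Tbx2 (-2.56 to -1.67), Gbx2 (-3.39 to -2.41), Otx2 (-2.28 to -1.59), Lmx1a (-2.38 to -1.66), Tbx1 (-0.84 to -0.08) and Tbx3 (-1.45 to -0.39). Lmx1b turned positive without control replicate 1 (0.20) and without Brg1cKO replicate 1 (0.10; lowest -0.36), and Emx2 without control replicate 2 (1.08; lowest -1.41, without control replicate 1). The adjusted p over these alternatives ran from 7.59e-21 to 0.201 for Otx1 and from 1.16e-26 to 0.102 for Tbx2.

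Genes called, 5 in the reported fit, numbered 417 with every gene of at least 1 count, 10 with a minimum count of 50, 1083 with DESeq2, 54 with voom and 62 with the newer edgeR moderation, and 33 to 3519 with a library left out. Factors called, 0 in the reported fit, numbered 4 (with 1.01% of all genes lower), 0, 5, 1 and 2 (0.205% lower) under the same settings and 2 to 6 with a library left out. With the replicate number as a block, 140 genes and 2 factors (Otx1 and Tbx2) were called, with 0.417% of genes called lower. The labels do not pair the libraries, and deviations of same-numbered libraries correlated at -0.00528. Under RLE and upper quartile scaling 0 factors were called. Factors lower without overlap per otic epithelium read, 1 as reported, numbered 5 against general epithelium and 2 without Oc90. The cause of these differences was not tested. Emx2 had the fewest reads of the 9 in a library (37 in control replicate 1), and its controls lay 5.74-fold apart.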
